A study of Mus musculus with 18 samples.

Results

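The tumour necrosis factor (TNF) superfamily was followed gene by gene through the first 3 days of acute myocardial infarction (AMI) in the mouse. Its members were taken by symbol, as all genes named Tnfsf or Tnfrsf with a number, plus Tnf, Lta, Ltb, Ltbr, Fas, Fasl, Cd27, Cd40, Cd40lg, Cd70 and Eda2r. The table of 24419 gene symbols held 42 of them, 17 ligands and 25 receptors. Of these, 26 reached 1 FPKM in at least 1 of 18 mice, 7 ligands and 19 receptors, and were tested among 13333 genes that passed the same filter. RNA came from the left ventricle, infarcted in the AMI mice, of male C57BL/6 mice aged 8 weeks, and the sample records name the tissue only as heart. All mice had been anaesthetised with sodium pentobarbital. A group of 3 mice served as control, called sham by the study, and 3 mice each were taken at 10 min, 1 h, 6 h, 24 h and 72 h after the left anterior descending coronary artery had been tied off near its origin. Each library was 1 mouse, and the labels name no transgene.

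TNF superfamily ligands are mostly membrane proteins that act as trimers and can be shed from the cell. Their receptors fall into those with a death domain, which can recruit adaptors and start apoptosis or necroptosis, those that recruit TRAF adaptors and turn on NF-kappaB and MAP kinases, and decoys that bind a ligand without signalling. In the heart, TNF and its receptors are known for effects on contractility and remodelling, Fas and the TRAIL receptors for cell death, and TNFRSF12A, the receptor of TWEAK, for its rise in injured tissue. The lymphoid members, such as CD40 ligand, CD27 and the receptors of BAFF, act mainly in T and B cells.

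Expression was given as FPKM, which scales the fragments of a gene by transcript length and by the mapped fragments of the library, so that levels of different genes can be set side by side. The FPKM of a mouse summed to between 542418 and 600467. No read counts were given, and ratios of the lowest FPKM put the depth of the mice between 0.812 and 1.31 times that of the first sham mouse. Fold changes are differences of mean log2(FPKM + 1), which understate the change of genes below a few FPKM, and were tested with limma over all tested genes with Benjamini-Hochberg adjustment. A gene was called at an adjusted p under 0.05, and every value after ± is an SD over 3 mice. At 72 h the log2 changes of all genes had a median of 0.29, against 0.03 with median-of-ratios scaling, and 7081 genes were called higher and 3226 lower, against 5208 and 4792 with that scaling. At 24 h the same medians were 0.13 and 0.01, with 3496 higher and 1516 lower genes against 2460 and 2426. At 6 h the calls were 1543 higher and 2233 lower, against 1922 and 1586, and at 10 min 33 and 13 against 28 and 20. Smaller changes therefore depend on the scaling. The tissue was a mixture of cells, and fewer cells of a type cannot be told apart from less RNA per cell. Summed over 5 markers each, cardiomyocyte genes had between 41099 and 43479 FPKM in the sham mice and between 16526 and 20254 at 72 h, fibroblast genes between 203 and 219 and between 1962 and 2709, and endothelial genes between 468 and 509 and between 382 and 492. The endothelial markers differed. Kdr (51.9 to 67.5 FPKM in the sham mice, 25.7 to 38.6 at 72 h), Tie1 and Tek lay below all sham mice at 72 h. Pecam1 and Cdh5 overlapped them. Pan-leukocyte genes (Ptprc, Coro1a, Laptm5, Itgb2 and Cd53) summed to between 13.9 and 16.6 FPKM in the sham mice, 69.1, 25.5 and 38.6 in the 6 h mice, 83.5, 81.9 and 204 in the 24 h mice and between 254 and 284 at 72 h. Neutrophil genes summed to between 2.32 and 4.99 FPKM in the sham mice, 997, 116 and 375 at 6 h, 209, 42.6 and 965 at 24 h and between 49.6 and 60.2 at 72 h. The first 6 h mouse and the third 24 h mouse thus had the most leukocyte RNA of their groups. Macrophage genes ran from between 54.7 and 58.6 to between 545 and 645 FPKM at 72 h, and monocyte genes from between 18.2 and 23.4 to between 168 and 194. Markers of T cells (3.47 to 6.65 FPKM at 72 h), B cells (5.9 to 7.13), NK cells (2.27 to 3.88) and dendritic cells (9.48 to 10.8) were low in sum and lay at 72 h above all sham mice, which had between 0.552 and 1.11, between 1.72 and 2.5, between 0.415 and 0.927 and between 6.22 and 6.82 FPKM in the same order. The dendritic markers went both ways. Flt3 (0 to 0.175 FPKM in the sham mice, 3.39 to 4.76 at 72 h), Ccr7 and Xcr1 lay above all sham mice at 72 h. Zbtb46 (4.1 to 4.62 and 2.92 to 3.53 FPKM) and Clec9a (1.59 to 1.99 and 1.27 to 1.47) lay below them. Mast cell genes summed to between 5.02 and 5.76 FPKM in the sham mice and between 21.5 and 91.4 at 6 h, a sum that holds Hdc, which neutrophils express too. Hdc had between 1.62 and 2.33 FPKM in the sham mice and 86.8, 18.2 and 31.3 at 6 h. Cpa3, Kit, Mcpt4 and Tpsb2 each overlapped the sham mice at 6 h.

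At 10 min and at 1 h no member was called by limma. The unadjusted p lay under 0.05 for 1 higher and 2 lower members at 10 min, where it did for 8.7% and 6% of all genes, and for 1 higher and 1 lower member at 1 h, where it did for 5.52% and 7.06%. At 6 h, 8 of the 26 tested members were higher than sham (30.8%) and 3 lower (11.5%), against 11.6% and 16.8% of all genes. At 24 h, 13 were higher (50%) and 2 lower (7.69%), against 26.2% and 11.4%. At 72 h, 23 were higher (88.5%) and 1 lower (3.85%), against 53.1% and 24.2%. Of all genes, 0.248% were called higher and 0.0978% lower at 10 min, and 0.669% and 0.0526% at 1 h. For the tested members, medians of the log2 changes were 0.01 (10 min), -0.05 (1 h), 0.29 (6 h), 0.69 (24 h) and 1.01 (72 h). Those of all genes were 0.02, -0.02, -0.08, 0.13 and 0.29 in the same order. These counts and medians describe the members and carry no test, since 12 of the 26 lay below 1 FPKM in every sham mouse and passed the filter only through AMI mice. Without the first 6 h mouse 9 members were higher at 6 h (34.6%, against 9.72% of all genes). Without the third 24 h mouse 12 were higher at 24 h (46.2% against 25.6%). The count at 24 h was 2 without the first or the second sham mouse (7.69% of the members, against 9.47% and 9.9% of all genes) and 4 without the third (15.4% against 12.4%). Without the filter it was 6 of 41 (14.6% against 16.6%). The members' share at 24 h was thus no higher than that of all genes without the first sham mouse, the second sham mouse or the filter. At 6 h, 6, 6 and 7 members were higher without the first, the second and the third sham mouse (23.1%, 23.1% and 26.9%), against 5.73%, 6.19% and 6.58% of all genes. With median-of-ratios scaling 21 members were higher and 2 lower at 72 h (80.8% and 7.69%), against 39.1% and 36% of all genes. With quantiles matched 17 were higher and 3 lower (65.4% and 11.5%), against 32.1% and 43.5%.

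**Figure D1:**
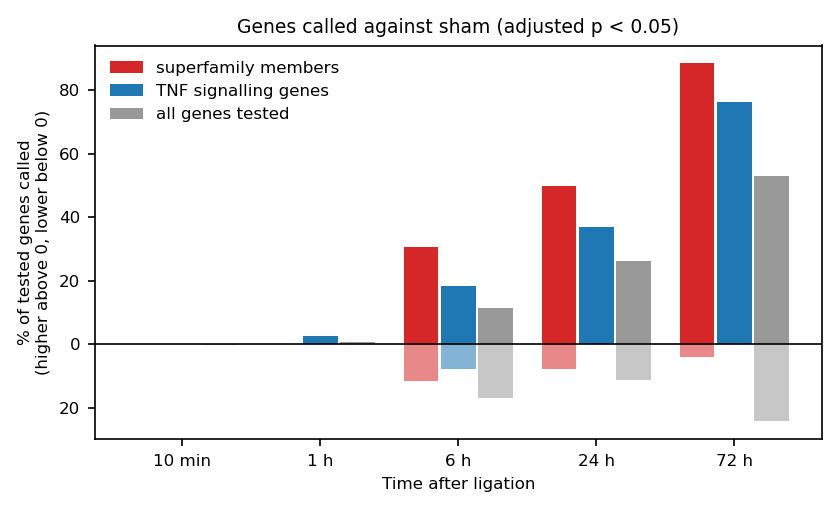
Percent of tested genes called against sham at each time after ligation (adjusted p under 0.05), with genes called higher drawn above 0 and genes called lower below it, for the superfamily members, the TNF signalling genes and all genes tested. Bars of members called higher reached 30.8% (6 h), 50% (24 h) and 88.5% (72 h), and those of all genes 11.6%, 26.2% and 53.1%.

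**Figure D2:**
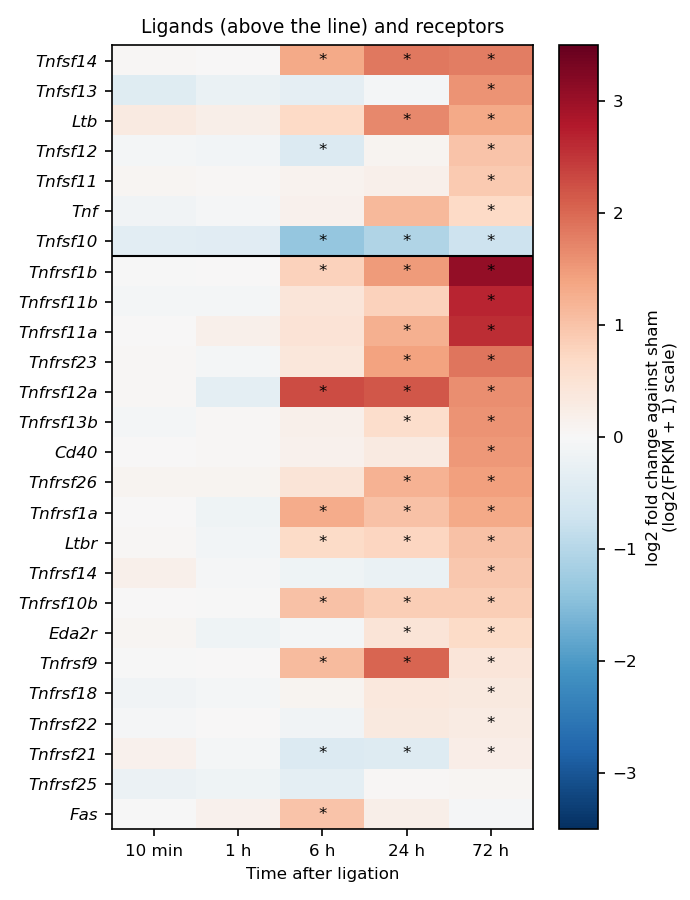
Log2 fold change against sham of the 26 tested members (rows, ligands above the line, each part ordered by the value at 72 h) at the 5 times (columns), with a star where the adjusted p was under 0.05. Tnfrsf12a was the largest rise at 6 h (2.29) and Tnfrsf1b at 72 h (3.06), and Tnfsf10 was the member below sham at 6 h, 24 h and 72 h.

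In the sham ventricle the most abundant member was Tnfrsf12a with 31.5 ± 0.121 FPKM. It was followed by Tnfsf10 (20.5 ± 1.42), Tnfsf12 (16.7 ± 0.983), Tnfrsf1a (15.1 ± 1.06), Ltbr (14 ± 1.08), Tnfrsf21 (12.6 ± 0.385), Fas (8.4 ± 0.72) and Tnfrsf1b (5.74 ± 0.201 FPKM). Among these 8, the sham mice of Tnfrsf1a overlapped in level with those of Tnfsf12 and of Ltbr, and no other neighbours in this order overlapped. At 72 h Tnfrsf12a was still first (99.6 ± 8.06 FPKM), Tnfrsf1b had moved from rank 8 to rank 2 (55.4 ± 3.62), and Tnfrsf1a (39.3 ± 1.89), Tnfsf12 (34.5 ± 2.61), Ltbr (29.2 ± 1.68) and Tnfrsf11a (21.8 ± 2.14 FPKM) came next. Tnfrsf1a and Tnfsf12 barely overlapped there, since the lowest Tnfrsf1a was 37.139 and the highest Tnfsf12 37.161 FPKM.

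Among the receptors, Tnfrsf12a rose most at 6 h. It encodes the small receptor of the ligand TWEAK, has no death domain and recruits TRAF adaptors, and spans bases 23675445 to 23677468 of chromosome 17 in mm10, the build of all positions given here (GENCODE release M21). The sham mice had 31.4, 31.6 and 31.5 FPKM, and the 6 mice at 10 min and 1 h had between 19.8 and 38.9. At 6 h the mice had 136, 233 and 125 FPKM, at 24 h 80.9, 172 and 218 and at 72 h 95.4, 109 and 94.5. All 9 mice from 6 h on lay above all earlier mice. The highest value at 6 h was in the mouse with the least leukocyte RNA of its group and the highest at 24 h in the mouse with the most, and the part of leukocytes in these values was not tested. The log2 fold change was 2.29 at 6 h (SE 0.21, adjusted p = 0.000902), 2.17 at 24 h (SE 0.33, adjusted p = 0.00613) and 1.63 at 72 h (SE 0.07, adjusted p = 1.85e-07). The calls at these 3 times held with any 1 mouse left out. At 1 h the value was -0.34 with an adjusted p of 0.423, and 0.0252 without the third 1 h mouse.

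Its ligand Tnfsf12, which encodes TWEAK, followed another course. The sham mice had 15.6, 17.2 and 17.3 FPKM, the 10 min and 1 h mice between 15 and 16.6, the 6 h mice 11, 13.3 and 11, the 24 h mice 17.3, 21.8 and 15.5 and the 72 h mice 31.9, 34.5 and 37.2. Every 6 h mouse lay below and every 72 h mouse above all sham mice. The log2 fold change was -0.48 at 6 h (SE 0.10, adjusted p = 0.0148, between 0.0624 and 0.0658 without the second or the third sham mouse), 0.10 at 24 h (adjusted p = 0.545) and 1.00 at 72 h (SE 0.08, adjusted p = 4.9e-06). Compared directly, 24 h was higher than 6 h by 0.58 (adjusted p = 0.0474), which was 0.35 with an adjusted p of 0.214 under median-of-ratios scaling and 0.0826 with a replicate block. The adjusted p of that rise was between 0.0693 and 0.14 without any 1 of the 6 h mice or without the first or the second 24 h mouse, and 72 h was higher than 24 h by 0.90 (adjusted p = 0.00212). Tnfsf12 and Tnfsf13 lie side by side on chromosome 11, from 69686250 to 69695849 and from 69682846 to 69685784, inside the read-through gene Tnfsfm13, and reads can be shared among the 3. Tnfsfm13, listed separately, had 4.32 ± 1.12 FPKM in the sham mice and 7.56 ± 0.894 at 72 h (log2 change 0.71, SE 0.16, adjusted p = 0.00332).

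Tnf itself stayed low. The gene, on chromosome 17 from 35199381 to 35202007 beside Lta and Ltb, encodes the founding ligand of the family. The sham mice had 0.334, 0.18 and 0.119 FPKM, the 6 mice at 10 min and 1 h between 0.0581 and 0.242, and the 6 h mice 0.438, 0.223 and 0.384. At 24 h the mice had 0.546, 0.713 and 5.88 FPKM, so that the third mouse, which had the most leukocyte RNA, stood far above the others, and at 72 h they had 0.773, 1.41 and 0.735. The rise was called at 72 h (log2 change 0.69, SE 0.14, adjusted p = 0.00199) and not at 24 h (log2 fold change 1.12, adjusted p = 0.133), although all 24 h mice lay above all sham mice. Without the third 24 h mouse the value at 24 h was 0.43 with an adjusted p of 0.0282, and with all 18 mice in one fit the adjusted p was 0.0193. At 72 h the adjusted p was 0.476 with quantile normalization (0.12) and 0.103 with all 18 mice in one fit. Lta, the other ligand of these receptors, did not reach 1 FPKM, with a highest value of 0.311.

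Both TNF receptors rose. Tnfrsf1a encodes the widely expressed receptor with a death domain. It had 16.1, 14 and 15.3 FPKM in the sham mice and between 13.1 and 16.6 at 10 min and 1 h. It then had 42.7, 35.3 and 37.1 FPKM in the 6 h mice, 24.5, 27.6 and 46.4 in the 24 h mice and 37.1, 40.6 and 40.3 in the 72 h mice. No mouse from 6 h on overlapped the sham mice, and the 6 h and 72 h mice had close levels. The log2 fold changes were 1.29 (SE 0.10, adjusted p = 0.000475), 1.02 (SE 0.22, adjusted p = 0.0153) and 1.32 (SE 0.07, adjusted p = 7.09e-07). Tnfrsf1b encodes the receptor without a death domain, found mainly on leukocytes and endothelial cells. It had 5.93, 5.53 and 5.75 FPKM in the sham mice and between 4.77 and 6.87 at 10 min and 1 h. Tnfrsf1b then had 16.6, 7.95 and 9.34 FPKM in the 6 h mice, 12.4, 11.9 and 38.3 in the 24 h mice and 51.5, 56.3 and 58.5 in the 72 h mice. The highest mice at 6 h and 24 h were the first and the third, the mice with the most leukocyte RNA, whose part in these values was not tested. The log2 fold changes were 0.80 (SE 0.23, adjusted p = 0.0391), 1.49 (SE 0.41, adjusted p = 0.0284) and 3.06 (SE 0.07, adjusted p = 1.38e-08), and 72 h was higher than 24 h (log2 change 1.57, SE 0.40, adjusted p = 0.0165, and between 0.0551 and 0.0611 without the first 24 h mouse or the second or the third 72 h mouse). With any 1 sham mouse left out, the adjusted p at 24 h was between 0.0528 and 0.0609 for Tnfrsf1a and between 0.08 and 0.0872 for Tnfrsf1b, and that of Tnfrsf1b at 6 h between 0.101 and 0.11. In levels, Tnfrsf1a exceeded Tnfrsf1b in each mouse up to 24 h, and Tnfrsf1b exceeded Tnfrsf1a in each 72 h mouse.

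**Figure D3:**
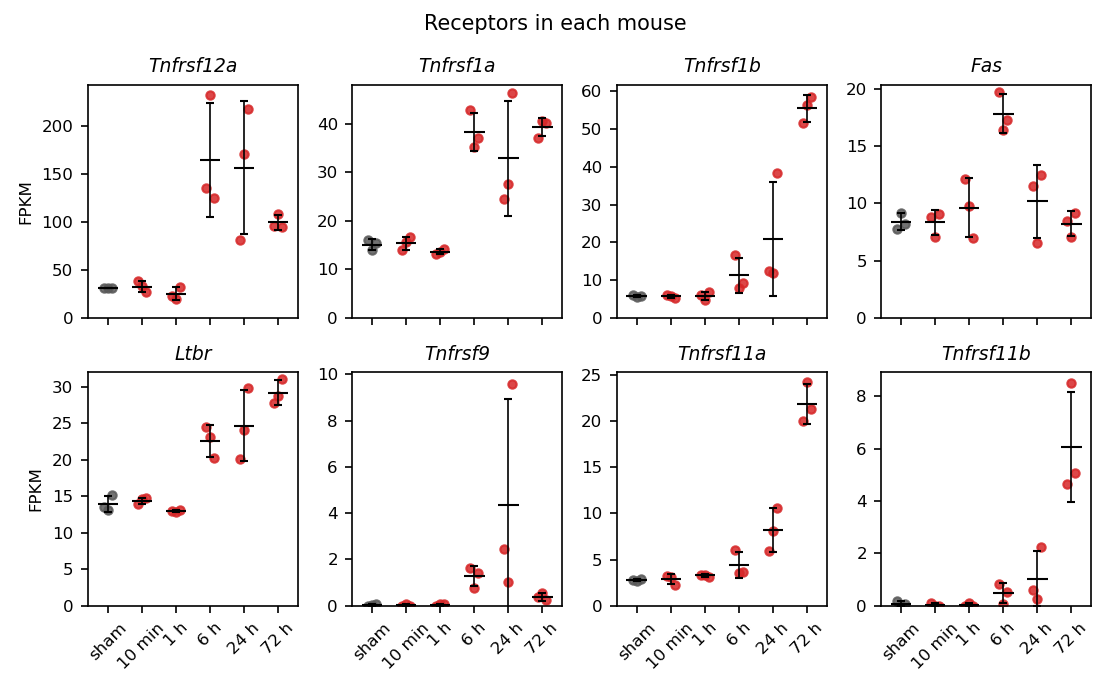
FPKM of 8 receptors in every mouse (points), with the mean (line) and the SD of 3 mice (bars), in the sham mice (grey) and at each time after ligation (red), each panel on its own linear axis from 0. Tnfrsf12a, Tnfrsf1a, Ltbr and Fas were above all sham mice at 6 h, Fas was back among them at 72 h (7.07 to 9.2 FPKM), and Tnfrsf1b, Tnfrsf11a and Tnfrsf11b were highest at 72 h.

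Receptors of cell death differed in their course. Fas, a death receptor on chromosome 19 from 34290666 to 34327772, had 7.78, 9.19 and 8.23 FPKM in the sham mice, between 6.98 and 12.1 at 10 min and 1 h, 19.7, 16.4 and 17.3 in the 6 h mice, 11.5, 6.52 and 12.5 in the 24 h mice and 8.46, 7.07 and 9.2 in the 72 h mice. All 6 h mice lay above all others, and the 72 h mice overlapped the sham mice. Fas was called at 6 h (log2 change 1.00, SE 0.10, adjusted p = 0.00126), where the call held with any 1 mouse left out, and not at 24 h (0.21, adjusted p = 0.477) or 72 h (-0.03, 95% interval -0.27 to 0.21, adjusted p = 0.811). With median-of-ratios scaling the 72 h value was -0.31 (adjusted p = 0.0285) and with quantile normalization -0.46 (0.00614), both lower than sham. The difference of the 24 h from the 6 h mice was -0.79 with an adjusted p of 0.0548, and 0.0492 with median-of-ratios scaling. Without the second 24 h mouse Fas was called higher at 24 h (0.47, adjusted p = 0.0301). Fasl, its ligand, had at most 0.0243 FPKM in any mouse.

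Tnfrsf10b, the receptor that signals death on binding of TRAIL, had 1.17, 0.752 and 1.21 FPKM in the sham mice, between 0.844 and 1.23 at 10 min and 1 h, 3.92, 2.9 and 2.7 in the 6 h mice, 1.88, 2.44 and 3.96 in the 24 h mice and 2.3, 3 and 2.87 in the 72 h mice. It was above all sham mice at each of these times, with log2 changes of 1.03 (adjusted p = 0.00373), 0.85 (0.0218) and 0.87 (0.000195). Its call at 24 h was lost without any 1 of the sham mice (adjusted p between 0.0576 and 0.081). The ligand TRAIL, encoded by Tnfsf10, moved the other way. Tnfsf10 had 18.8, 21.5 and 21 FPKM in the sham mice, between 13.3 and 19.2 at 10 min and 1 h, 6.14, 7.99 and 8.15 in the 6 h mice, 9.02, 12 and 7.22 in the 24 h mice and 11, 14.3 and 11.2 in the 72 h mice. All 9 mice from 6 h on lay below all sham mice. The log2 fold changes were -1.36 (SE 0.12, adjusted p = 0.000748), -1.07 (SE 0.17, adjusted p = 0.00659) and -0.71 (SE 0.10, adjusted p = 0.000264), and these 3 calls held with any 1 mouse left out and under each other setting tried. All 10 min mice also lay below all sham mice, with a log2 fold change of -0.37 and an adjusted p of 0.205, where 8.15% of all genes had groups apart in that direction. At 1 h the adjusted p was 0.3, and 0.023 without the third 1 h mouse.

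Tnfrsf21, a receptor with a death domain that the nervous system and lymphocytes are known to use, had 12.8, 12.9 and 12.2 FPKM in the sham mice and between 10.5 and 15.5 at 10 min and 1 h. Tnfrsf21 then had 8.74, 8.87 and 8.94 FPKM in the 6 h mice, 8.91, 9.08 and 9.17 in the 24 h mice and 15.2, 15.7 and 13.8 in the 72 h mice. It fell at 6 h (log2 change -0.47, SE 0.08, adjusted p = 0.00634). It was also lower at 24 h (log2 change -0.44, SE 0.08, adjusted p = 0.00934, between 0.052 and 0.0527 without the first or the second sham mouse). At 72 h it was called higher by 0.22 (adjusted p = 0.0212), a direction that turned to -0.08 with median-of-ratios scaling and to -0.16 when quantiles were matched. Its adjusted p at 72 h was between 0.0528 and 0.0733 without the third sham mouse or the first or second 72 h mouse. The difference between 72 h and 24 h was 0.66 (SE 0.10, adjusted p = 0.00166). Tnfrsf25, another death domain receptor, had between 0.661 and 3.48 FPKM over the 18 mice and was called at no time, with log2 fold changes between -0.33 and 0.08 and adjusted p of 0.471 or more. Its ligand Tnfsf15 stayed below 1 FPKM and had 0.508, 0.444 and 0.22 FPKM in the 72 h mice, against 0 in every sham, 10 min and 1 h mouse.

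In the lymphotoxin and LIGHT axis, Ltbr and Tnfsf14 were higher from 6 h on. Ltbr, the receptor of lymphotoxin beta and LIGHT, which signals through the non-canonical NF-kappaB pathway, lies on chromosome 6 from 125306571 to 125313885. It had 13.5, 13.2 and 15.2 FPKM in the sham mice and between 12.9 and 14.7 at 10 min and 1 h. Ltbr then had 24.5, 23.2 and 20.2 FPKM in the 6 h mice, 20.1, 24.2 and 29.8 in the 24 h mice and 27.9, 28.7 and 31.1 in the 72 h mice. No mouse of these times overlapped the sham mice, with log2 changes of 0.66 (adjusted p = 0.00479), 0.76 (0.0107) and 1.01 (4.37e-06). At 24 h the adjusted p was between 0.0502 and 0.0509 without the first or the second sham mouse. Tnfsf14, which encodes LIGHT, had 0.0305, 0 and 0.0274 FPKM in the sham mice, between 0 and 0.0753 at 10 min and 1 h, 3.87, 0.559 and 1.26 in the 6 h mice, 2.04, 0.788 and 8.31 in the 24 h mice and 2.33, 2.67 and 2.66 in the 72 h mice. The highest mice were again the first at 6 h and the third at 24 h. Its log2 fold changes were 1.34 (SE 0.36, adjusted p = 0.0324), 1.86 (SE 0.54, adjusted p = 0.0337) and 1.80 (SE 0.09, adjusted p = 2.87e-07). With any 1 sham mouse left out, the adjusted p of Tnfsf14 at 6 h was between 0.0899 and 0.0922 and at 24 h between 0.0892 and 0.0958. Ltb, the membrane partner of lymphotoxin alpha, on chromosome 17 from 35194439 to 35196320, had 0.547, 0.543 and 0.471 FPKM in the sham mice and between 0.501 and 1.29 at 10 min and 1 h. Ltb then had 3.05, 0.895 and 0.957 FPKM in the 6 h mice, 2.94, 1.5 and 10.7 in the 24 h mice and 3.03, 2.62 and 2.88 in the 72 h mice. It was called at 24 h (log2 fold change 1.68, adjusted p = 0.0386, between 0.101 and 0.104 with any 1 sham mouse left out) and at 72 h (log2 change 1.34, SE 0.08, adjusted p = 1.52e-06). Tnfrsf14, the other receptor of LIGHT, had 1.92, 2.38 and 2.14 FPKM in the sham mice and between 1.64 and 3.47 at 10 min and 1 h. Tnfrsf14 then had 1.82, 1.79 and 1.83 FPKM in the 6 h mice, 1.21, 2.08 and 1.89 in the 24 h mice and 4.78, 3.94 and 6.65 in the 72 h mice (log2 change 0.94, SE 0.15, adjusted p = 0.000489), and 72 h was higher than 24 h by 1.16 (adjusted p = 0.00322).

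**Figure D4:**
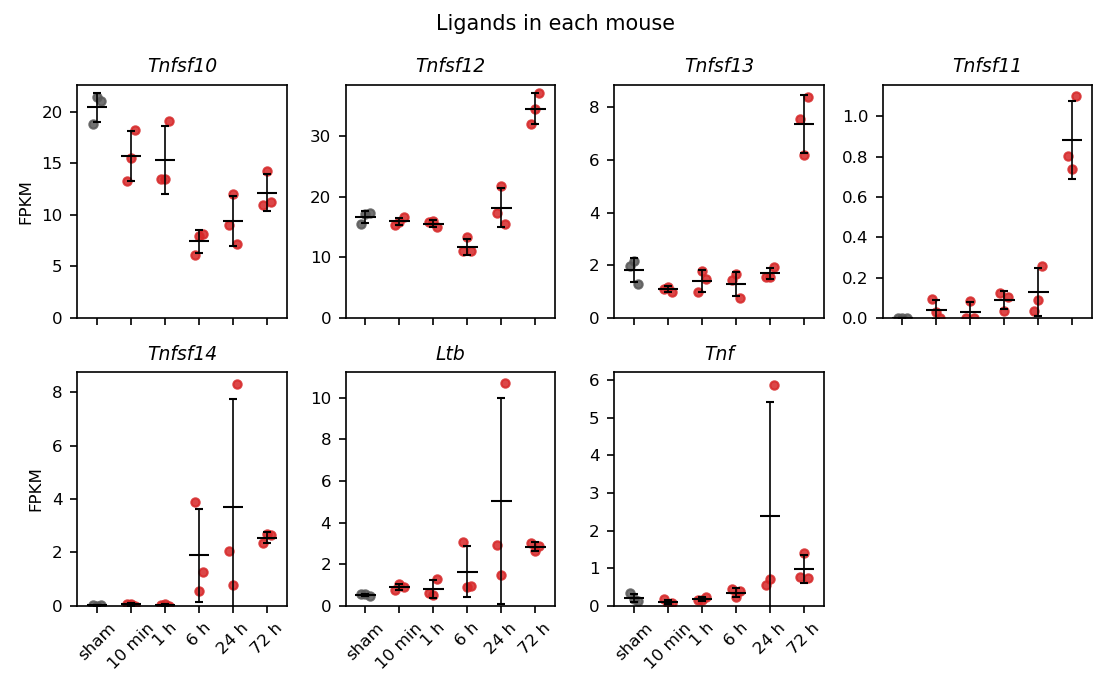
FPKM of the 7 tested ligands in every mouse (points), with the mean (line) and the SD of 3 mice (bars), in the sham mice (grey) and at each time after ligation (red), each panel on its own linear axis from 0. Tnfsf10 fell to between 6.14 and 8.15 FPKM at 6 h, Tnfsf12 and Tnfsf13 were highest at 72 h, and Ltb, Tnf and Tnfsf14 had their highest value in the third 24 h mouse.

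Promoters of members called higher at 6 h are shown because these genes share a call at 6 h. RefSeq promoters of GRCm38.p6 matched 32 of the 42 members, and 7 of the 8 genes higher at 6 h, in 8 entries. The 250 bases before the start were searched on both strands for the kappa-B pattern, GGG and TTTCC with any 2 bases between them, the AP-1 pattern TGANTCA and the STAT pattern TTCNNNGAA, which were picked from 11 patterns after their matches had been seen. These 3 were found in 1.41%, 6.75% and 7.02% of all 32851 promoter entries, and 14.5% held any of them. Of the 7 genes, Fas, Tnfrsf1a, Tnfrsf1b, Tnfrsf9 and Tnfsf14 held at least 1 in an entry, and Ltbr and Tnfrsf12a held none. Matches are letters and no evidence of binding. The entries of Tnfrsf1a and Tnfrsf12a and the entry of Tnfrsf9 with matches reach into exons and are not shown. The other entry of Tnfrsf9 (chr4:150919905-150920154, plus strand) touches no exon, holds none of the 3 patterns and is not shown either. The 4 sequences below do not touch an annotated exon, run 5′ to 3′ toward the start, and have the matches in capitals. Their positions are chr19:34290409-34290658 on the plus strand for Fas, and on the minus strand chr4:145246871-145247120 for Tnfrsf1b, chr17:57194182-57194431 for Tnfsf14 and chr6:125313886-125314135 for Ltbr.
Fas: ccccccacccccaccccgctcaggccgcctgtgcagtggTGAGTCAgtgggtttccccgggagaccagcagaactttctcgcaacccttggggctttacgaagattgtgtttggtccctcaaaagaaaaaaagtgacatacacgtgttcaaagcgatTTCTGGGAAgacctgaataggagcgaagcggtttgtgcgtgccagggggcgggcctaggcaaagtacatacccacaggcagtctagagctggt
Tnfrsf1b: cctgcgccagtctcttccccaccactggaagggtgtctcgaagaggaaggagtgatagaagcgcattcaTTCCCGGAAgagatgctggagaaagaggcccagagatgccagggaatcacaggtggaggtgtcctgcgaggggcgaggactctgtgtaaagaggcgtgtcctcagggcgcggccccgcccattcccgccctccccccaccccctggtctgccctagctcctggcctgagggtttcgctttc
Tnfsf14: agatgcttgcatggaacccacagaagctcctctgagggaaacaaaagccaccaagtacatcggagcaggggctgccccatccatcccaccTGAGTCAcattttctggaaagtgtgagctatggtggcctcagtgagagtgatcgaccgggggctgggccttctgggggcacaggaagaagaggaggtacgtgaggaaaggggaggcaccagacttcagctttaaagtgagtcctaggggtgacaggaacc
Ltbr: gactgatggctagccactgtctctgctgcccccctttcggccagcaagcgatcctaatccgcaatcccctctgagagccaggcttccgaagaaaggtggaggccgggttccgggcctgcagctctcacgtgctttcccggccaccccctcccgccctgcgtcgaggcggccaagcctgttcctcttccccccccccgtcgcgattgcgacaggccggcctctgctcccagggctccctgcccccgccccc
Counted from -1 at the base before the start, the AP-1 match of Fas begins at -211 and its STAT match at -93, the STAT match of Tnfrsf1b at -181 and the AP-1 match of Tnfsf14 at -160. No 2 matches overlap.

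The RANK axis was higher mainly at 72 h. Tnfrsf11a encodes RANK, known from osteoclast precursors, and lies on chromosome 1 from 105780718 to 105847981. It had 2.82, 2.7 and 2.92 FPKM in the sham mice, between 2.24 and 3.37 at 10 min and 1 h, 6, 3.5 and 3.63 in the 6 h mice, 5.87, 8.15 and 10.6 in the 24 h mice and 20.0, 24.2 and 21.3 in the 72 h mice. Every AMI mouse from 6 h on was above all sham mice, and the 72 h mice were above all others. The rise was called at 24 h (log2 change 1.24, SE 0.19, adjusted p = 0.00587) and 72 h (log2 change 2.58, SE 0.08, adjusted p = 4.42e-08) and not at 6 h (0.47, adjusted p = 0.0828), and 72 h was higher than 24 h (log2 change 1.34, SE 0.19, adjusted p = 0.00149). Tnfrsf11b encodes osteoprotegerin, a secreted decoy of RANK ligand and TRAIL. It had 0.168, 0 and 0.0754 FPKM in the sham mice and between 0 and 0.102 at 10 min and 1 h. Tnfrsf11b then had 0.816, 0.081 and 0.538 FPKM in the 6 h mice, 0.596, 0.27 and 2.23 in the 24 h mice and 4.64, 8.49 and 5.09 in the 72 h mice, with a call at 72 h (log2 change 2.67, SE 0.19, adjusted p = 2.5e-06). At 24 h its adjusted p was 0.0881, and 0.0358 with a pseudocount of 0.1. The ligand Tnfsf11, which encodes RANK ligand, was listed at 0 in all sham mice, lay between 0 and 0.092 FPKM at 10 min and 1 h, and had 0.121, 0.0362 and 0.103 FPKM in the 6 h mice, 0.0333, 0.0901 and 0.26 in the 24 h mice and 0.803, 0.737 and 1.1 FPKM in the 72 h mice (adjusted p = 4.26e-05, with no fold given against a group at 0). It passed the filter through the third 72 h mouse alone, a mouse of the group in which it was called. From 24 h to 72 h Tnfrsf11b rose by 1.88 and Tnfsf11 by 0.74 (adjusted p = 0.00506 and 0.00393). Macrophage and fibroblast markers were also highest at 72 h, and their part in these rises was not tested.

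Members known from T and B cells split into those that stayed near 0 and those that rose. Tnfrsf9 encodes CD137, a costimulatory receptor of T cells and other activated cells, and had 0, 0.0288 and 0.0756 FPKM in the sham mice and between 0 and 0.0802 at 10 min and 1 h. It reached 1.62, 0.787 and 1.42 FPKM in the 6 h mice and 2.47, 1.04 and 9.6 in the 24 h mice, and had 0.365, 0.552 and 0.228 in the 72 h mice. It was above all sham mice at these times, with the third 24 h mouse far above the others. The log2 fold changes were 1.12 (adjusted p = 0.00272), 2.03 (adjusted p = 0.0261, between 0.0723 and 0.0831 with any 1 sham mouse left out) and 0.41 (adjusted p = 0.00755, but 0.01 with adjusted p = 0.899 under quantile normalization). Tnfrsf9 was the member called lower at 72 h than at 24 h (log2 change -1.62, SE 0.53, adjusted p = 0.0424, and between 0.0817 and 0.116 without the first 24 h mouse or any 1 of the 72 h mice). The summed T cell markers had between 0.552 and 1.11 FPKM in the sham mice and between 0.855 and 2.11 at 10 min. They had between 2.02 and 2.96 FPKM at 1 h and between 1.55 and 3.02 at 6 h. At 24 h the sums were between 1.48 and 2.07 FPKM, and at 72 h, where Tnfrsf9 was lower again, between 3.47 and 6.65. From 1 h on the sums lay above all sham mice. At 24 h Lck (0.548 to 1.04 FPKM) lay above all sham mice (0.226 to 0.298), and Cd3d, Cd3e, Cd3g and Cd2 overlapped them. At 72 h Cd3e still overlapped them and the other markers lay above. The part of T cells in the Tnfrsf9 values was not tested. Cd40, a costimulatory receptor of B cells, macrophages and other antigen-presenting cells, had 2.1, 1.93 and 1.55 FPKM in the sham mice and between 1.59 and 2.68 at 10 min and 1 h. Cd40 then had 2.85, 1.71 and 2.1 FPKM in the 6 h mice, 1.97, 3.02 and 2.67 in the 24 h mice and 7.04, 7.3 and 7.05 in the 72 h mice (log2 change 1.51, SE 0.09, adjusted p = 1.2e-06). Tnfrsf18, the costimulatory receptor GITR, had 0.183, 0.296 and 0.286 FPKM in the sham mice and between 0.083 and 0.294 at 10 min and 1 h. Tnfrsf18 then had 0.397, 0.369 and 0.256 FPKM in the 6 h mice, 0.267, 0.4 and 1.38 in the 24 h mice and 0.535, 0.527 and 0.742 in the 72 h mice (0.35, adjusted p = 0.00921), a direction that turned to -0.19 with quantile normalization, and 1 mouse, the third at 24 h with 1.38 FPKM, carried it over the filter.

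Of the APRIL and BAFF axis, Tnfsf13 and Tnfrsf13b passed the filter. Tnfsf13, which encodes APRIL, had 1.97, 2.15 and 1.3 FPKM in the sham mice and between 0.964 and 1.78 at 10 min and 1 h. Tnfsf13 then had 1.44, 1.67 and 0.761 FPKM in the 6 h mice, 1.56, 1.56 and 1.94 in the 24 h mice and 7.54, 6.2 and 8.39 in the 72 h mice. It was called at 72 h (log2 change 1.58, SE 0.14, adjusted p = 1.26e-05), and its rise from 24 h to 72 h was 1.64 (adjusted p = 0.000131). Tnfrsf13b, which encodes the receptor TACI, had 0, 0 and 0.466 FPKM in the sham mice and between 0 and 0.28 at 10 min and 1 h. Tnfrsf13b then had 0.228, 0.338 and 0.289 FPKM in the 6 h mice, 0.673, 0.487 and 1.14 in the 24 h mice and 1.96, 2.53 and 2.76 in the 72 h mice. The calls were 0.62 at 24 h (adjusted p = 0.0474, 0.0568 with median-of-ratios scaling, and between 0.0752 and 0.148 without the first or second sham mouse or the first or the third 24 h mouse) and 1.58 at 72 h (adjusted p = 3.22e-05), and 72 h was higher than 24 h by 0.96 (adjusted p = 0.00354). Summed B cell markers had between 1.72 and 2.5 FPKM in the sham mice and between 5.9 and 7.13 at 72 h, and macrophage markers between 545 and 645, and their part in these rises was not tested.

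On chromosome 7, Tnfrsf26, Tnfrsf22 and Tnfrsf23 form a run of receptor genes between 143607659 and 143685872. Tnfrsf22 and Tnfrsf23 encode mouse decoy receptors of TRAIL and are close copies, so that reads may be split between them. Tnfrsf23 had 0.724, 0.633 and 0.662 FPKM in the sham mice, between 0.566 and 0.989 at 10 min and 1 h, 2.21, 0.6 and 1.09 in the 6 h mice, 2.09, 2.17 and 7.71 in the 24 h mice and 4.19, 6.4 and 4.85 in the 72 h mice. Tnfrsf26 had 0.179, 0.347 and 0.358 FPKM in the sham mice, between 0.0454 and 0.641 at 10 min and 1 h, 1.47, 0.382 and 0.652 in the 6 h mice, 1.62, 0.853 and 4.43 in the 24 h mice and 2, 3.41 and 2.24 in the 72 h mice. Both had their highest values in the third 24 h mouse, and at 6 h in the first mouse. Tnfrsf23 was called at 24 h (1.40, adjusted p = 0.0286) and 72 h (1.86, adjusted p = 2.55e-06), and so was Tnfrsf26 (1.20 and 1.44, adjusted p = 0.0371 and 2.85e-05). With any 1 sham mouse left out the adjusted p at 24 h was between 0.081 and 0.0873 for Tnfrsf23 and between 0.0902 and 0.113 for Tnfrsf26. Tnfrsf22 had 0.945, 0.729 and 0.982 FPKM in the sham mice and between 0.688 and 1.12 at 10 min and 1 h. Tnfrsf22 then had 0.956, 0.36 and 0.942 FPKM in the 6 h mice, 0.984, 1.21 and 2.04 in the 24 h mice and 1.28, 1.44 and 1.15 in the 72 h mice, a change of 0.28 (adjusted p = 0.0249) that turned to -0.24 with quantile normalization and had an adjusted p of 0.273 with median-of-ratios scaling and between 0.0636 and 0.093 without the second sham or second 72 h mouse. Eda2r, the X-linked receptor of ectodysplasin A2, had 0.949, 0.774 and 0.759 FPKM in the sham mice, between 0.512 and 1.08 at 10 min and 1 h, 1.01, 0.499 and 0.713 in the 6 h mice, 1.11, 1.45 and 1.95 in the 24 h mice and 1.65, 2.24 and 1.78 in the 72 h mice. It was called at 72 h (log2 change 0.66, SE 0.10, adjusted p = 0.000393, but 0.10 with adjusted p = 0.355 under quantile normalization) and at 24 h (0.44, adjusted p = 0.046). The call of Eda2r at 24 h was lost with median-of-ratios scaling (0.0686), with a replicate block (0.0816), and without any 1 of the sham mice or of the second and the third 24 h mice (between 0.0651 and 0.133).

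The other 16 members stayed below 1 FPKM in every mouse and were left out of the tests above. Without the filter 15 of them could be tested at 72 h, of which 7 were called higher and 1 lower. Of all genes, 42.2% were then called higher and 18.2% lower. Cd70 was listed at 0 in all 18 mice. Among the ligands, the highest values were 0.0243 FPKM for Fasl, 0.105 for Cd40lg, 0.265 for Tnfsf4, 0.311 for Lta, 0.309 for Tnfsf18, 0.346 for Tnfsf8, 0.462 for Tnfsf13b, 0.508 for Tnfsf15 and 0.842 for Tnfsf9. Among the receptors they were 0.0304 for Tnfrsf17, 0.1 for Tnfrsf8, 0.354 for Tnfrsf4, 0.457 for Cd27, 0.493 for Tnfrsf13c and 0.89 for Tnfrsf19. Tnfsf8, the ligand of CD30, had 0.255, 0.346 and 0.299 FPKM in the 72 h mice and between 0 and 0.0325 in the earlier mice. Tnfrsf19 had 0.344, 0.636 and 0.552 FPKM in the sham mice and 0.0671, 0.037 and 0.223 in the 6 h mice, with no overlap, and without the filter was called lower at 6 h and at 72 h (log2 changes -0.44 and -0.39, adjusted p = 0.0271 and 0.00786). Tnfsf9, the ligand of CD137, had 0.137, 0.14 and 0.177 FPKM in the sham mice and 0.384, 0.372 and 0.339 in the 6 h mice, also with no overlap, and without the filter was called higher at 6 h and at 72 h (0.25 and 0.41, adjusted p = 0.0075 and 0.00137). The other members called higher at 72 h without the filter were Tnfrsf13c, which was also called at 24 h, Tnfrsf4, Tnfrsf8, Tnfsf15, Tnfsf4 and Tnfsf8, with log2 changes between 0.085 and 0.47. Superfamily genes whose symbols the rule leaves out included Relt (2.67 ± 0.713 FPKM in the sham mice and 6.86 ± 0.481 at 72 h, with a log2 change of 1.12 and adjusted p = 0.000111) and Ngfr (0.29 ± 0.114 and 2.03 ± 0.396 FPKM, 1.23, adjusted p = 1.89e-05), whereas Eda had 0.837 ± 0.104 and 0.889 ± 0.114 FPKM (0.04, adjusted p = 0.707) and Edar and Edaradd stayed below 1 FPKM.

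The proteins that release TNF from the cell and carry its signal inside it were followed as a list of 40 genes, of which 38 were tested and Traf1 and Tnip3 stayed below 1 FPKM. At 10 min none of them was called by limma, and 2 higher genes had an unadjusted p under 0.05, as did 8.7% of all genes. Tnfaip3 was the 1 gene called at 1 h (2.63%, against 0.669% of all genes called higher). The list had 7 higher and 3 lower genes at 6 h. By limma 14 of its genes rose and 0 fell at 24 h, and 29 rose and 0 fell at 72 h. For lower genes the unadjusted p lay under 0.05 in 0 cases at 24 h and in 1 at 72 h, against 2127 of all 13327 and 3311 of all 13329 genes. Its medians were 0.04, 0.37 and 0.65 at these times. These shares, 18.4% and 7.89% at 6 h, 36.8% at 24 h and 76.3% at 72 h, compare with the backgrounds given for the members. With median-of-ratios scaling 5 genes of the list were lower at 72 h (13.2%, against 36% of all genes), and with quantile normalization 8 (21.1% against 43.5%). Tnfaip3, which encodes the feedback inhibitor A20, went from 1.56, 1.35 and 1.72 FPKM in the sham mice to 2.72, 2.85 and 2.82 in the 1 h mice, 7.16, 2.32 and 2.88 in the 6 h mice and 3.51, 4.49 and 3.8 in the 72 h mice, with no overlap at 1 h. It was called at 1 h (log2 change 0.58, SE 0.08, adjusted p = 0.0233) and 72 h (0.95, adjusted p = 3.83e-05) and not at 6 h (0.89, adjusted p = 0.0672). The call at 1 h was lost without a filter, with all 18 mice in one fit, with a replicate block, and without the first or second sham mouse or the first or second 1 h mouse. Without the first sham mouse 2 genes of the list were higher at 6 h and 5 at 24 h, without the second 3 and 5, and without the third 3 and 7. In the same order these were 5.26%, 7.89% and 7.89% of the list at 6 h, against 5.73%, 6.19% and 6.58% of all genes, and 13.2%, 13.2% and 18.4% at 24 h, against 9.47%, 9.9% and 12.4%. The lower genes at 6 h were then 0, 1 and 1 (0%, 2.63% and 2.63%), against 6.59%, 7.63% and 6.4% of all genes.

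At 6 h the called genes with the largest changes were Birc3, an inhibitor of apoptosis bound to TRAF2 (1.06, adjusted p = 0.0101), Tnip2, a partner of A20 (0.91, 0.00288), Casp8, the initiator caspase of death receptors (0.77, 0.0161), Ripk1, the kinase at the branch of survival and necroptosis (0.58, 0.0457), Otulin, which cleaves linear ubiquitin chains (0.45, 0.0394), and Rhbdf1, a partner of the TNF-shedding protease ADAM17 (0.53, 0.0166). The 3 genes lower at 6 h were Ikbkg, the regulatory subunit of the IKK complex (-0.53, adjusted p = 0.0122), Fadd, the adaptor between death receptors and caspase-8 (-0.52, 0.0244), and Rbck1, a subunit of the linear ubiquitin ligase (-0.36, 0.0402). In FPKM, Casp8 had 4.15, 4.01 and 4.64 in the sham mice, 10.7, 6.89 and 6.8 in the 6 h mice and 17.9, 22 and 19.6 in the 72 h mice, and Ripk1 had 5.52, 5.29 and 7.16 in the sham mice, 12, 7.46 and 9.22 in the 6 h mice and 20.6, 22.1 and 23.2 in the 72 h mice. Fadd had 7, 6.79 and 7.17 FPKM in the sham mice and 3.7, 4.58 and 5.52 in the 6 h mice. The 24 h mice had 8.88, 9.54 and 9.4 FPKM of Fadd, all above the sham mice. In the 72 h mice Fadd had 8.77, 7.94 and 7.21 FPKM, and its change was not called there (0.16, adjusted p = 0.101).

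At 72 h the largest change was that of Tnfaip8l2, an inhibitor of immune receptor signalling expressed in leukocytes, which is no direct part of the TNF receptor complex, from 0.547, 0.65 and 0.615 FPKM in the sham mice to 17.4, 12.9 and 18.9 (log2 change 3.42, SE 0.13, adjusted p = 8.99e-08). Next came Casp8 (1.98, adjusted p = 2.65e-07), Ripk1 (1.73, 1.37e-06) and Tradd, an adaptor of the death domain receptor of TNF (1.68, 8.93e-07). They were followed by Adam17 (1.31, 3.68e-06), Birc3 (1.21, 1.15e-05), Map3k14, the kinase of the non-canonical NF-kappaB pathway (1.17, 1.58e-05), and Traf4 (1.10, 9.29e-06). Adam17 had 24, 22.6 and 28.9 FPKM in the sham mice, 28.5, 26.1 and 34.4 in the 24 h mice and 59.3, 67.5 and 64.7 in the 72 h mice. Among the genes with no call at 72 h were Rnf31 (-0.07, 95% interval -0.26 to 0.11) and Sharpin (0.13, -0.03 to 0.29), which encode the other subunits of the linear ubiquitin ligase, and Map3k7 (0.13, -0.03 to 0.29), the kinase TAK1.

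**Figure D5:**
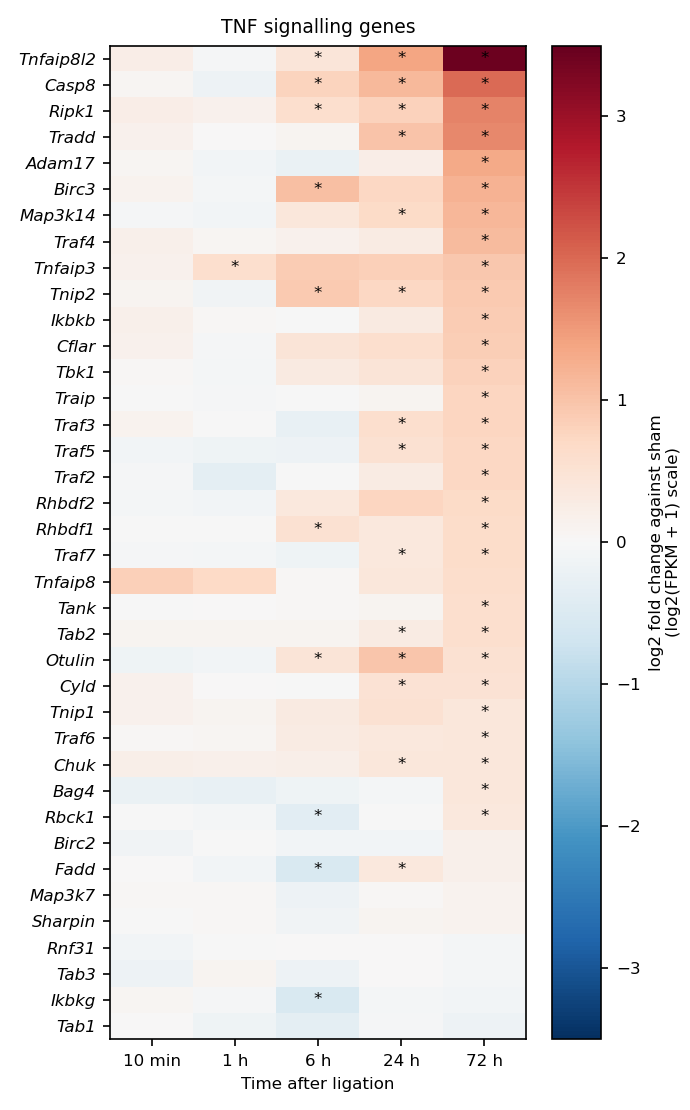
Log2 fold change against sham of the 38 tested TNF signalling genes (rows, ordered by the value at 72 h) at the 5 times (columns), with a star where the adjusted p was under 0.05. Stars are absent at 10 min, mark 1 gene at 1 h and 10 at 6 h, and mark 29 genes at 72 h, all of them higher.

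Members called between neighbouring times were few from 6 h to 24 h and more from 24 h to 72 h. Compared with 6 h, 1 member was higher at 24 h (Tnfsf12) and 0 were lower by limma, where 12.5% of all genes were called higher and 1.94% lower. The unadjusted p lay under 0.05 for 4 higher and 1 lower member, and for 30.2% and 6.21% of all genes. The 1664 genes called higher at 24 h than at 6 h became 1 without the second or the third 6 h mouse or with a replicate block, 27 without the second 24 h mouse and 191 without the first 6 h mouse. Compared with 24 h, 10 members were higher at 72 h and 1 lower, which is 38.5% and 3.85% of the members, against 29.7% and 13.5% of all genes. With median-of-ratios scaling the genes called between 6 h and 24 h were 403 higher and 368 lower in place of 1664 and 258, and between 24 h and 72 h 3159 and 2693 in place of 3963 and 1799. The 10 were Tnfrsf11b, Tnfsf13, Tnfrsf1b, Tnfrsf11a, Cd40, Tnfrsf14, Tnfrsf13b, Tnfsf12, Tnfsf11 and Tnfrsf21, and the 1 was Tnfrsf9. Of these, Tnfrsf11b, Tnfrsf13b, Tnfsf11 and Tnfrsf9 passed the filter only through AMI mice, Tnfsf11 through the third 72 h mouse alone. These comparisons and those with sham share mice, so that a high or low mouse enters both. Tnfrsf12a, Tnfrsf1a, Tnfrsf10b, Ltbr, Ltb, Tnfsf14 and Tnfsf10, all of them called against sham at 24 h, were not called between 24 h and 72 h. For Tnfrsf12a the difference was -0.54 (95% interval -1.31 to 0.23), for Tnfrsf1a 0.31 (-0.21 to 0.82), for Ltbr 0.25 (-0.09 to 0.60) and for Tnfsf10 0.35 (-0.08 to 0.79), intervals wide enough to hold changes of either direction. Without the third 24 h mouse Tnfrsf1a (0.58, adjusted p = 0.00234), Ltbr (0.39, 0.0209), Tnfrsf23 (0.96, 0.00174), Tnfrsf26 (0.67, 0.0288) and Tnfsf14 (0.61, 0.0412) were called higher at 72 h than at 24 h. Without the first 24 h mouse Tnfrsf12a was called lower at 72 h (-0.95, adjusted p = 0.00503), and without the second Fas was called lower (-0.50, 0.0342) and Tnfsf10 higher (0.53, 0.0449).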

How the data were processed

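Poly-A RNA of 18 ventricles, 3 mice in each of 6 groups, was sequenced. The authors trimmed reads with cutadapt 1.18, aligned them to mm10 with HISAT2 2.1.0 and quantified genes with StringTie 1.3.4d, and deposited FPKM for each gene symbol and mouse, without averaging. The gene annotation and the use of strand are not given in the sources used here. Column names gave the mouse, with 1 h written with a letter l and one 6 h column with an n, and 0 columns were left unmapped.

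Genes that reached 1 FPKM in any mouse were kept, and log2(FPKM + 1) was fitted with limma 3.58.1 in R 4.3.3, letting the prior variance follow expression. Each of 7 comparisons used its own 6 mice, and a gene with 1 value in all of them was dropped. P-values were adjusted by Benjamini-Hochberg over all genes tested. No exact permutation test of 3 against 3 mice can go below a two-sided p of 0.1, so none was run. Replicates were separate mice. The relative depth of a mouse was the most frequent ratio of the first sham mouse's FPKM to its own. Genes above 0 and at most 0.3 FPKM in both mice were used. The number of reads is not known from these values, so no counting interval was given. The limma script was tested on simulated data.

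Every member was named, and for members called against sham the value of each sham, 6 h, 24 h and 72 h mouse was given, with the range of the 10 min and 1 h mice. Of the signalling genes, the called ones with the 8 largest changes at 6 h and 72 h were named, and Rbck1 was named in addition after its value was seen. Members and lists were chosen with earlier results of these data known. Alternatives were each mouse left out, a replicate block, a pseudocount of 0.1, no filter or a filter on the mean FPKM, scaling by median-of-ratios or by quantiles, one fit over the 18 mice, and a constant prior variance. Gene positions are from GENCODE release M21.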

Additional observations from a re-analysis of the deposited data

Results flagged for a closer look

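For 12 values, 2 AMI groups differed from each other in their change from the same sham mice, by the limma test of the difference between the groups, with p-values adjusted over all genes. From 6 h to 24 h this was Tnfsf12, by 0.58 on the log2 scale (adjusted p = 0.0474). From 24 h to 72 h the differences were 1.64 for Tnfsf13, 1.88 for Tnfrsf11b, 1.57 for Tnfrsf1b, 1.34 for Tnfrsf11a, 1.21 for Cd40 and 1.16 for Tnfrsf14. They were 0.96 for Tnfrsf13b, 0.90 for Tnfsf12, 0.74 for Tnfsf11, 0.66 for Tnfrsf21 and -1.62 for Tnfrsf9, the member that was lower at 72 h. Tnfsf11 passed the filter through the third 72 h mouse alone. Tnfrsf9, Tnfrsf11b and Tnfrsf13b lay below 1 FPKM in every sham mouse and passed it only through AMI mice. Groups of 3 mice were not searched for single mice far from the rest.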

How the results depend on the processing

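Of 62 called member values, leaving out 1 mouse kept the call in 306 of 372 recomputed values and lost it in 66, and the other settings kept it in 452 of 489, lost it in 33 and turned the direction in 4. The turned log2 fold changes at 72 h were -0.19 for Tnfrsf18, -0.16 for Tnfrsf21 and -0.24 for Tnfrsf22 with quantile normalization and -0.077 for Tnfrsf21 with median-of-ratios scaling. Tnfsf14 between 24 h and 72 h, never called with all mice (-0.06), ranged from -0.58 without the second 24 h mouse to 0.61 without the third. The cause was not tested.

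Without a filter more genes and up to 15 further members enter. Then 6 members were higher at 24 h, 5 of the 13 and Tnfrsf13c (14.6%, against 16.6% of all genes). At 72 h 2 were lower, Tnfsf10 and Tnfrsf19 (4.88% against 18.2%). Members higher at 24 h than at 6 h were 0 (against 5.35% of all genes) and lower at 72 h than at 24 h 0 (against 8.96%). Of the signalling genes 0 were higher at 1 h (against 0.373% of all genes) and 4 at 6 h (10% against 7.33%). With a mean FPKM of at least 1, 1 member was lower at 24 h than at 6 h (4.55%, against 2.33% of all genes). With median-of-ratios scaling 2 members were lower at 72 h (7.69%, against 36% of all genes). At 24 h against 6 h 0 were then higher (against 3.02% of all genes) and 1 lower (3.85% against 2.76%). That scaling left 9 signalling genes higher and 1 lower at 24 h (23.7% and 2.63%, against 18.5% and 18.2% of all genes). At 72 h it left 5 lower (13.2% against 36%). With quantile normalization 3 members were lower at 72 h (11.5%, against 43.5% of all genes) and 0 higher at 24 h than at 6 h (against 2.78%). Of the signalling genes 9 then rose and 1 fell at 24 h (23.7% and 2.63%, against 15.9% and 20.5%), while 8 fell at 72 h (21.1% against 43.5%). With all 18 mice in one fit 7 members were higher and 1 lower at 24 h than at 6 h. These were 26.9% and 3.85% of the members, below the 36.4% and 7.52% of all genes. In that fit 0 signalling genes were higher at 1 h (against 0.383% of all genes) and 22 at 24 h (57.9% against 34.3%). With no variance trend 1 signalling gene was lower at 72 h (2.63%, against 24.2% of all genes).

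With the replicate number as a block, 0 members were higher at 24 h than at 6 h, against 0.0075% of all genes. Signalling genes higher at 1 h were then 0 (against 0.586% of all genes) and at 6 h 4 (10.5% against 9.47%). Same-numbered mice did not deviate together against sham (correlations from -0.2592 to 0.0822), and between AMI times the correlations ran from -0.3274 to 0.4149. In no comparison did all 3 pairs of mice correlate best with their own number, and 2 did at 24 h against sham and at 72 h against 24 h. A pairing by number was thus not shown, and groups of 3 mice cannot exclude one.

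With 1 mouse left out, the members lower at 1 h ranged from 0 to 2, higher at 6 h from 6 to 11, lower at 6 h from 2 to 3, higher at 24 h from 2 to 14, lower at 24 h from 1 to 2 and higher at 72 h from 21 to 23, with 1 lower. Between 6 h and 24 h they ranged from 0 to 1 in either direction. All genes there ranged from 0.0075% to 13.1% higher and from 0.0075% to 2.66% lower. Between 24 h and 72 h the members ranged from 9 to 15 higher and from 0 to 2 lower. All genes there ranged from 21% to 36.1% higher and from 7.78% to 17.3% lower. Signalling genes ranged from 0 to 1 higher at 1 h, from 2 to 9 higher and 0 to 3 lower at 6 h, from 5 to 20 higher at 24 h and from 29 to 31 higher at 72 h. The share of all genes called higher moved too, from 0.504% to 1.11% at 1 h and from 5.73% to 13.4% at 6 h. It moved from 9.47% to 30.3% at 24 h and from 50.1% to 52.7% at 72 h. The share called lower moved from 0.015% to 0.226% at 1 h and from 6.4% to 21.7% at 6 h. It moved from 2.75% to 13.5% at 24 h and from 22.1% to 23.8% at 72 h. Groups of 3 mice and an unknown read depth limit what can be shown for members below 1 FPKM.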
